A study of Homo sapiens with 8 samples.

Results

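The genes described here are the transcriptional repressor REST and 48 neuronal genes, 49 symbols chosen by function as synaptic, secretory, cytoskeletal, adhesion, channel or RNA-binding genes regarded as typical of neurons. The choice was made with earlier results of these data known. All 49 were found among the 23228 gene symbols counted in every library. BT-549 is an established human triple negative breast cancer cell line, that is, one classed as lacking the estrogen receptor, the progesterone receptor and HER2 amplification. Cells received vehicle (DMSO), EC359 at 100 nM, vorinostat at 10 µM, or EC359 and vorinostat together at those same doses (the combination), for 24 h in every group, and 2 libraries of total RNA were sequenced per group, 8 in all. EC359 is a small-molecule inhibitor of the leukemia inhibitory factor receptor LIFR, and vorinostat is a hydroxamate inhibitor of histone deacetylases (HDACs). All groups share this cell line, and the labels do not say whether the libraries of a group came from separate cultures, so p-values measure the spread between these libraries, which may be technical.

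REST is a zinc finger protein that binds a DNA element called RE1 near many neuronal genes and keeps them silent outside the nervous system. It recruits corepressor complexes, CoREST (built on RCOR1) and SIN3, which carry the histone deacetylases HDAC1 and HDAC2, and the CoREST complex also carries the histone demethylase KDM1A. Removal of acetyl groups from histones closes the chromatin at its targets, and HDAC inhibitors are known to derepress some REST targets in non-neuronal cells. The questions put to the data were how far vorinostat derepressed these genes in BT-549 and whether EC359 changed that response.

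Sites like RE1 near these genes are shown first because REST acts through such sites. The core letters of RE1 were searched as CAGCACC, 2 free bases and GGACAG (13 fixed letters), on both strands of the GRCh37 (hg19) genome within 5 kb of each gene's annotated start, with at most 1 mismatch. Of the 48 members other than REST, 16 held such a site (33.3%) and 10 held an exact one (20.8%), where 5.71% and 0.772% of 20090 protein-coding genes did. Capitals mark the letters that match, and each sequence is written 5′ to 3′ on the strand of the site. The exact sites near members that were called higher in both vorinostat comparisons described below were these:
CHGB (chr20:5892350-5892370, plus strand, intron, 203 bases after the gene start): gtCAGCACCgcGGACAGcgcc
SYN1 (chrX:47479469-47479489, minus strand, upstream, 224 bases before the gene start): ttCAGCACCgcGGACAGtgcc
SYP (chrX:49056581-49056601, minus strand, intron, 85 bases after the gene start): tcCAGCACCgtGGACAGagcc
SYT5 (chr19:55691568-55691588, minus strand, untranslated exon, 78 bases after the gene start): atCAGCACCcgGGACAGcgcc
CELF3 (chr1:151689576-151689596, minus strand, upstream, 308 bases before the gene start): tcCAGCACCggGGACAGctcc
INA (chr10:105038765-105038785, minus strand, intron, 1881 bases after the gene start): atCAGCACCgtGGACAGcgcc

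Exact sites also lay near members with too few reads to test in any group, their core letters being set by the search:
CHGA (chr14:93389868-93389888, plus strand, intron, 382 bases after the gene start): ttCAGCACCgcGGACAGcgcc
NEFH (chr22:29874664-29874684, minus strand, upstream, 1532 bases before the gene start): ttCAGCACCggGGACAGggcc
SYT4 (chr18:40857258-40857278, minus strand, untranslated exon, 231 bases after the gene start): ttCAGCACCtcGGACAGaaca

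With 1 mismatch, sites lay at the starts of further members called higher in both comparisons, here a site over the start of VGF and one near RUNDC3A:
VGF (chr7:100808840-100808860, plus strand, untranslated exon, 1 base after the gene start): ttCAGCACgctGGACAGcgcc
RUNDC3A (chr17:42385976-42385996, plus strand, untranslated exon, 204 bases after the gene start): ctCAGCACCtcGGAgAGctcc

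VGF held another site with 1 mismatch 976 bases after its start, in a coding exon. BEX1, ELAVL3, STMN2 and STMN3 held sites with 1 mismatch, that of STMN3 lying in a coding exon 4337 bases after the start, and NEFM held an exact site. A match to these letters is a description and no measure of REST binding. In the shorter RefSeq promoters (GRCh38.p14, 250 bases before to 50 after the start, 300 bases), with up to 2 mismatches allowed, 3 of the 34 members with an entry held the site (8.82%) against 550 of 27305 promoters (2.01%). The 7 letters CAGCACC alone stood in 11.8% of the members' promoters and 7.64% of all, and the 6 letters GGACAG in 26.5% and 20.5%, every full exact site holding both.

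**Figure D1:**
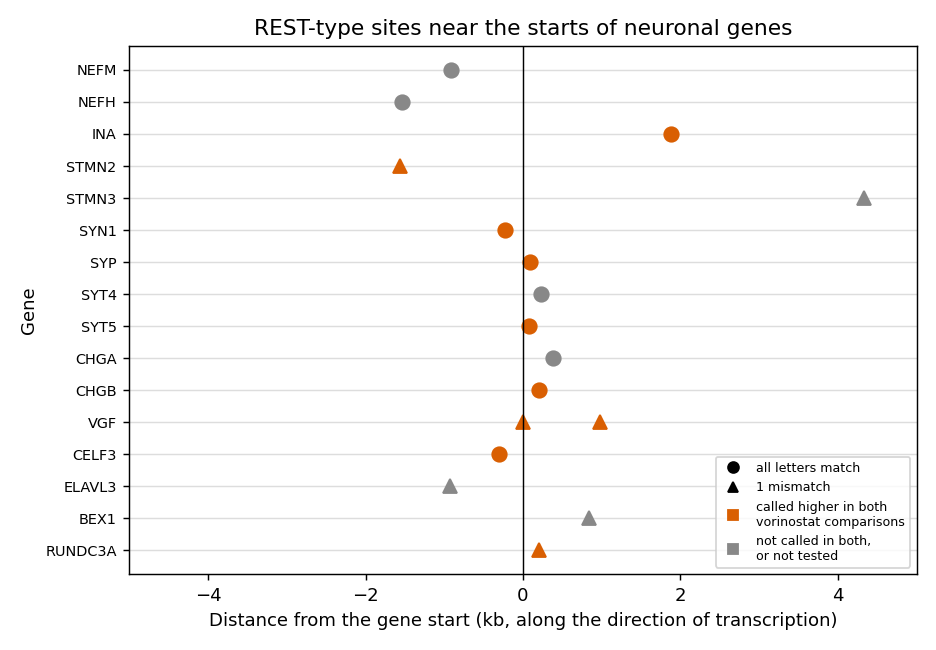
REST-type sites within 5 kb of the starts of 16 members. The x axis is the distance of the site from the gene start in kb along the direction of transcription, circles are exact sites and triangles have 1 mismatch. Orange genes were called higher in both vorinostat comparisons (9 genes) and grey genes were not, or were not tested (7 genes). All 10 exact sites lie within 2 kb of the start.

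Between 19069450 and 24759041 reads fell on genes in a library, and 13694 genes passed the filter on low counts. Values are CPM, counts scaled to library size with TMM factors and not divided by gene length, so they compare libraries and not genes. All 6 mesenchymal markers of BT-549 were expressed, with VIM between 2056 and 9442 CPM and called higher in both vorinostat comparisons, where the 6 gave 1 gene higher without EC359 and 1 higher and 2 lower with it. Of 9 luminal and receptor genes, 8 were tested, with 2 called higher and 1 lower without EC359 and 1 higher and 1 lower with it. In vorinostat against vehicle 6 were higher at an unadjusted p under 0.05, and DESeq2 called 4 higher. The combination libraries differed, with 26 and 180 reads for KRT8, 14 and 157 for KRT18 and 9 and 70 for EPCAM. FOXA1 had 30 and 29 there. PGR had at most 1 read in any library and ESR1 had no read under vehicle and at most 1.02 CPM elsewhere, but the HER2 gene ERBB2 was expressed, with 96.1 and 102 CPM under vehicle, 76.1 and 80.2 under EC359, 15.8 and 14.8 under vorinostat and 12.0 and 12.6 under the combination. ERBB2 fell in both vorinostat comparisons, with log2 fold changes of -2.70 and -2.66, and the luminal factor GATA3 rose in both from low levels, at 2.88 and 2.33. Of 10 glial markers, 3 were tested, 2 had no read anywhere, and their sum stayed between 1.60 and 9.21 CPM. In vorinostat against vehicle edgeR called 0 of the 3, with 2 higher at an unadjusted p under 0.05, and DESeq2 called 0. Muscle markers (3 of 12 tested) and blood markers (4 of 10 tested) gave 1 and 2 genes called higher in each vorinostat comparison, the blood genes being CD14 and HBA1, with PTPRC lower in the combination against EC359, and the muscle gene DES, a filament gene with at most 2.08 CPM. Liver markers differed between libraries of the same group: the 12 summed to 9.82 and 2.76 CPM under vehicle, 40.1 and 15.4 under EC359, 40.3 and 9.35 under vorinostat and 7.52 and 38.4 under the combination. In vorinostat against vehicle edgeR called 0 of the 10 tested liver markers, with 1 higher at an unadjusted p under 0.05, and DESeq2 called 1. None of the 12 was at 0 in every library, and their part in the results below was not tested. Leaving out the library with the higher liver sum in the EC359, vorinostat and combination groups left 22 members called higher in vorinostat against vehicle and 19 in the combination against EC359, where 24 and 24 were called with all libraries.

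The members fell into those already expressed in BT-549 and those close to silence. Under vehicle, 16 had a mean of 10 CPM or more, 4 lay between 1 and 10 CPM and 29 lay under 1 CPM. Of the 49, 35 had enough reads to test, which took about 0.483 CPM in the libraries of at least 1 group, and 22 of these passed that level in both vehicle libraries. The other 13 tested members were tested through the reads of another group, so the direction of their change was partly set by the filter. The 14 members not tested were NEFL, NEFM, NEFH, SYT4, CPLX2, CHGA, SCG3, GAP43, CRMP1, DCX, NRCAM, ELAVL3, ELAVL4 and BEX1. These had at most 15 reads in a library (CPLX2, in 1 combination library) and at most 38 over all 8 libraries, and SCG3 had none. A count of 0 allows up to 3 reads, which was 0.124 to 0.154 CPM by library. Among them were all 3 neurofilament subunits, the granin CHGA, the growth cone protein GAP43, the migration protein DCX and the neuronal RNA-binding proteins ELAVL3 and ELAVL4. Any derepression of these under vorinostat therefore stayed too low to test. NEFL had 0 and 2 reads under vehicle, 0 and 0 under EC359, 0 and 2 under vorinostat and 8 and 5 under the combination.

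**Figure D2:**
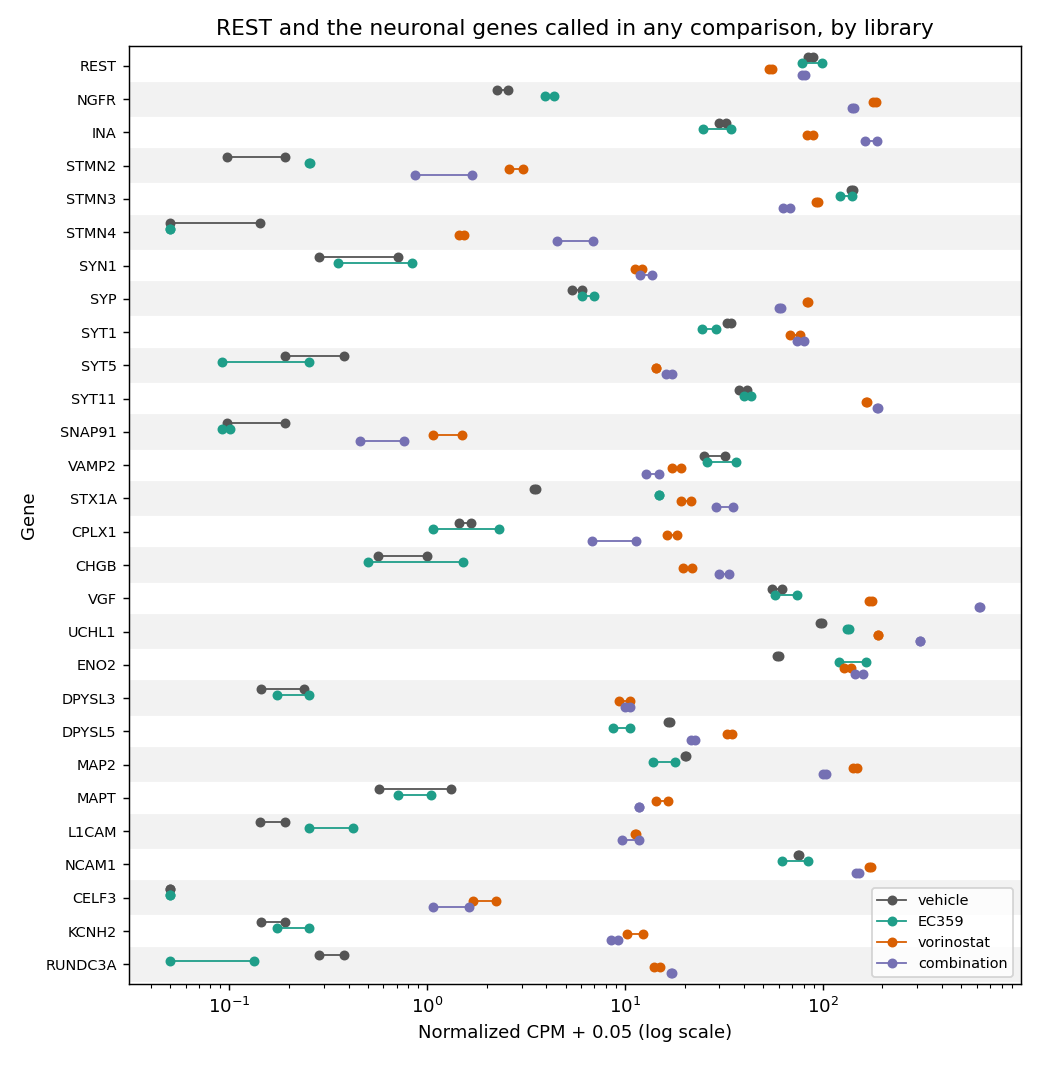
Normalized CPM plus 0.05, on a log axis, in each of the 8 libraries for REST and the 27 members called in any comparison. Points are libraries, lines join the 2 libraries of a group, and colours are the groups. For KCNH2, L1CAM, DPYSL3 and SYT5, vehicle and EC359 libraries are at 0.371 CPM or less and all vorinostat and combination libraries are at 8.39 CPM or more.

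The vorinostat effect was measured separately by library, without EC359 (vorinostat against vehicle) and with it (the combination against EC359), since these comparisons share no library. A call needed both an adjusted p below 0.01 and a log2 fold change above 1 in size. In vorinostat against vehicle, 24 of the 35 tested members were called higher and 0 lower, where 16.8% of all tested genes were called higher and 13.3% lower. For the 0 lower, edgeR gave 3 members lower at an unadjusted p under 0.05, and DESeq2 called 0. In the combination against EC359, 24 members were again called higher and 2 lower (STMN3 and VAMP2), where 19.8% and 13.9% of all tested genes were called. The median log2 fold change of the 35 was 2.07 and 2.55, beside 0.03 and 0.06 over all tested genes. In total, 23 members were called higher in both, 65.7% of those tested, while 1951 of the 13694 tested genes (14.2%) were. The members were chosen with earlier results of these data known, so these shares and medians are a description and no test of the set. ENO2 was called only without EC359 and UCHL1 only with it, and their differences between the comparisons are tested below.

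Since a gene near silence can pass the filter only through its treated libraries, the counts were also split by vehicle level. Of all tested genes with a vehicle mean under 1 CPM, 45.1% were called higher in the combination against EC359, which uses no vehicle library, and 12 of the 15 tested members under 1 CPM were. At 1 CPM or more, 15.8% of all tested genes and 12 of 20 members were called higher. Among the 22 members that passed the filter level in both vehicle libraries, 14 were called higher in each of the 2 vorinostat comparisons, and STMN3 and VAMP2 were called lower in the combination against EC359.

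**Figure D3:**
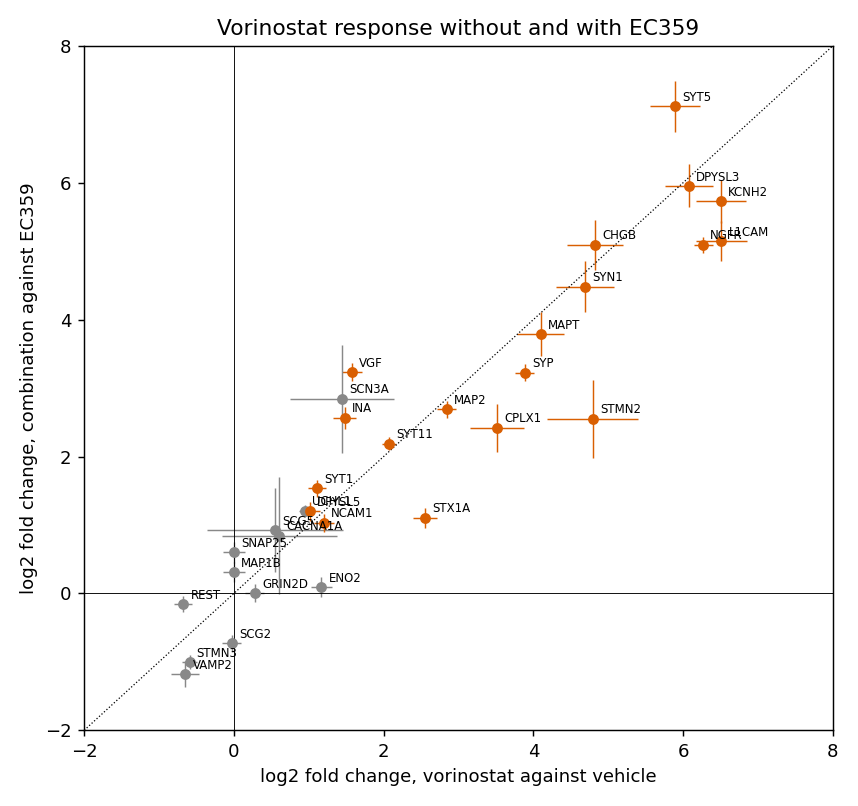
Log2 fold changes of tested members in vorinostat against vehicle (x axis) and in the combination against EC359 (y axis), with bars of 1 SE, and a dotted line of equal change. Orange genes were called higher in both comparisons. STMN4, SNAP91, CELF3 and RUNDC3A, with 3 reads or fewer in a group, are left out. VGF and INA lie above the line, and STX1A, NGFR and STMN2 lie under it.

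REST itself (chromosome 4, 57774042 to 57832974 of GRCh37) was expressed and was not called in any comparison. Its libraries held 83.8 and 89.2 CPM under vehicle, 98.8 and 78.5 under EC359, 53.2 and 55.0 under vorinostat and 80.8 and 78.2 under the combination. The vorinostat libraries were the lowest and did not overlap the others. Against vehicle, vorinostat gave a log2 fold change of -0.68 (SE 0.12, adjusted p = 0.00087), which passed the p threshold but not the fold threshold, a level 1.60-fold lower. With EC359 present the vorinostat change was -0.16 log2 units (SE 0.12, adjusted p = 0.26). It was 0.004 without EC359 replicate 1 and -0.33 without EC359 replicate 2. The combination lay above vorinostat alone by 0.56 log2 units (SE 0.12, adjusted p = 0.0091), and the interaction, which tests whether the response to both drugs differs from the sum of the responses to each on the log2 scale, was 0.52 (SE 0.17, adjusted p = 0.11) and not called. An exon of the mitochondrial gene NOA1 overlaps REST on the opposite strand, and whether reads were counted by strand is not given in the sources used here. Beside the members named below for such an overlap, opposite-strand genes also overlap exons of SYT1, UCHL1, DPYSL5, NCAM1, CELF3 and RUNDC3A.

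All 23 listed cofactors and regulators of REST were tested, and most lay a little lower under vorinostat without passing the fold threshold. In vorinostat against vehicle 1 was called higher and 2 lower, with a median log2 fold change of -0.39, and in the combination against EC359 1 was higher and 5 lower, with a median of -0.42. Of all tested genes, 16.8% were called higher and 13.3% lower without EC359, with a median of 0.03. With EC359 these were 19.8% and 13.9%, with a median of 0.06. RCOR2, a CoREST family scaffold, had 0.755 and 1.35 CPM under vehicle, 0.990 and 0.862 under EC359, 5.92 and 4.25 under vorinostat and 4.20 and 4.60 under the combination. It rose in both comparisons, with log2 fold changes of 2.26 (SE 0.33, adjusted p = 0.00027) and 2.23 (SE 0.34, adjusted p = 0.00031). Those that fell in both, with log2 fold changes without and with EC359 in parentheses, were SMARCA4, the ATPase of SWI/SNF remodelling complexes (-1.06 and -1.20) and CTDSPL, a small phosphatase that acts with REST (-1.11 and -1.67). The enzymes that REST complexes use were present throughout. HDAC1 had 175 and 174 CPM under vehicle, 157 and 165 under EC359, 314 and 314 under vorinostat and 242 and 236 under the combination, higher under vorinostat by 0.85 log2 units (SE 0.08, adjusted p = 1.9e-05) and, with EC359, by 0.57 (SE 0.08, adjusted p = 0.00019), under the fold threshold. On the log2 scale, RCOR1 was higher by 0.64 and 0.44 (adjusted p = 0.0014 and 0.0098), KDM1A was lower, at -0.39 and -0.53 (adjusted p = 0.0028 and 0.00042), and HDAC2 (0.29 and -0.11) and SIN3A (-0.09 and -0.21) did not pass the p threshold in either. In EC359 against vehicle edgeR called 0 cofactors, with 2 higher and 3 lower at an unadjusted p under 0.05, and in the combination against vorinostat 0, with 2 higher and 8 lower, and DESeq2 called 0 in both. Of all tested genes, edgeR called 1.94% higher and 1.72% lower in the former, and 3.37% and 0.876% in the latter.

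**Figure D4:**
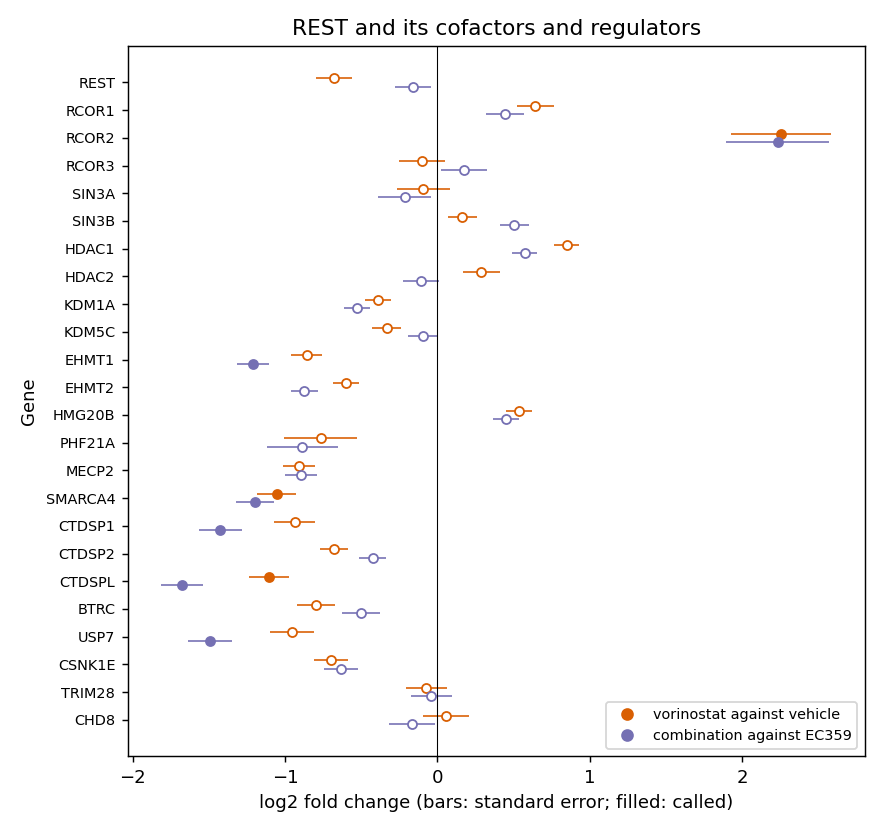
Log2 fold changes (x axis, bars of 1 SE) of REST and 23 of its cofactors and regulators in vorinostat against vehicle and in the combination against EC359. Filled points were called. RCOR2 is the only called gene to the right of 0, and SMARCA4 and CTDSPL are filled to the left of 0 in both comparisons.

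The neurotrophin receptor NGFR (p75, chromosome 17, 47572655 to 47592370 of GRCh37) had the widest gap between vehicle and vorinostat among members expressed above 1 CPM under vehicle. It had 2.50 and 2.19 CPM under vehicle, 4.33 and 3.91 under EC359, 178 and 185 under vorinostat and 139.7 and 143 under the combination. The vorinostat libraries were 77.1-fold above vehicle (log2 fold change 6.27, SE 0.13, adjusted p = 2e-08), and the combination libraries 34.1-fold above EC359 (log2 fold change 5.09, SE 0.12, adjusted p = 3.1e-08). EC359 libraries lay above vehicle by a log2 fold change of 0.81 (SE 0.14, adjusted p = 0.0049), under the fold threshold, and the combination stood at -0.36 relative to vorinostat (adjusted p = 0.018). An antisense gene, NGFR-AS1, overlaps its exons, and reads of the 2 strands cannot be told apart here.

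Of the intermediate filament genes, INA, which encodes alpha-internexin and has an exact site in its intron, was the only one with enough reads to test. It had 32.3 and 29.6 CPM under vehicle, 34.4 and 24.6 under EC359, 89.4 and 83.2 under vorinostat and 162 and 187 under the combination. Vehicle and EC359 libraries overlapped, vorinostat lay above both, and the combination lay above vorinostat. Vorinostat raised it by 1.48 log2 units (SE 0.16, adjusted p = 3.7e-05) without EC359 and by 2.56 (SE 0.16, adjusted p = 1.4e-06) with it. NT5C2 overlaps an INA exon on the opposite strand.

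The stathmins, which bind tubulin and destabilise microtubules, moved in different directions. STMN2 had 0.142 and 0.0467 CPM under vehicle, 0.206 and 0.203 under EC359, 2.98 and 2.55 under vorinostat and 1.64 and 0.817 under the combination. Its vorinostat libraries were the highest, at 27.7-fold vehicle (log2 fold change 4.79, SE 0.61, adjusted p = 0.00012), and the combination lay 5.86-fold above EC359 (log2 fold change 2.55, SE 0.57, adjusted p = 0.0033). That call was lost on leaving out EC359 replicate 1, combination replicate 1 or either vorinostat library, with adjusted p between 0.011 and 0.028. STMN4 was near silence without vorinostat, with 0 and 2 reads under vehicle, 0 and 0 under EC359, 27 and 35 under vorinostat and 133 and 88 under the combination. Its reads rose 30.7-fold from vehicle to vorinostat (95% counting interval 8.16 to 259), and at least 82.8-fold from EC359 to the combination, taking 3 reads over the group in place of 0. STMN3, already expressed, went the other way, with 139 and 143 CPM under vehicle, 122 and 141 under EC359, 94.1 and 92.6 under vorinostat and 62.6 and 68.5 under the combination. Every vorinostat and combination library lay under every vehicle library, and the change was -0.59 log2 units (SE 0.10, adjusted p = 0.00074) in vorinostat against vehicle and -1.002 (SE 0.10, adjusted p = 2.7e-05) in the combination against EC359, on the fold threshold (without EC359 replicate 2, -0.91).

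Genes of synaptic vesicles and release formed the largest group, 12 members of which 10 were tested, and 8 were called higher in each vorinostat comparison. Synapsin SYN1, which tethers vesicles, had 0.661 and 0.234 CPM under vehicle, 0.783 and 0.304 under EC359, 11.2 and 12.2 under vorinostat and 11.8 and 13.6 under the combination. Vehicle and EC359 overlapped, as did vorinostat and the combination, and the rise was 25.9-fold without EC359 and 22.4-fold with it (log2 fold change 4.69, SE 0.39, adjusted p = 8.3e-06, and log2 fold change 4.48, SE 0.37, adjusted p = 7.2e-06). SYN1 shares exonic positions with ARAF on the opposite strand. Synaptophysin SYP, a vesicle membrane protein, had 5.995 and 5.33 CPM under vehicle, 5.98 and 6.95 under EC359, 83.8 and 83.5 under vorinostat and 59.7 and 61.2 under the combination. It rose 14.8-fold and 9.37-fold (adjusted p = 1.4e-07 and 1.5e-07), and SYP-AS1 overlaps it. Both genes carry an exact site within 300 bases of the start.

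The 3 tested synaptotagmins, which include the calcium sensor SYT1, were called higher in both comparisons from very different starting levels. SYT1 had 34.1 and 32.6 CPM under vehicle, 28.7 and 24.3 under EC359, 67.8 and 76.4 under vorinostat and 79.9 and 73.7 under the combination, with log2 fold changes of 1.11 (SE 0.12, adjusted p = 3.8e-05) and 1.53 (SE 0.12, adjusted p = 4.9e-06). SYT5, with an exact site in its first exon, had 0.330 and 0.140 CPM under vehicle, 0.0412 and 0.203 under EC359, 14.3 and 14.3 under vorinostat and 17.2 and 16.0 under the combination. Its silent libraries and its induced libraries were separated by a wide gap, and the rise was 59.5-fold without EC359 and 139-fold with it (log2 fold change 5.89, SE 0.34, adjusted p = 1.2e-06, and log2 fold change 7.12, SE 0.37, adjusted p = 5.6e-07). These folds rest on 7 and 3 reads under vehicle and 1 and 4 under EC359. The interaction of SYT5 was 1.22 (SE 0.74, adjusted p = 0.38), not called. SYT11 had 37.8 and 41.1 CPM under vehicle, 43.4 and 39.7 under EC359, 165 and 167 under vorinostat and 188 and 190.1 under the combination. It rose 4.21-fold and 4.55-fold, and vehicle and EC359 libraries overlapped (adjusted p = 3.9e-07 and 2.5e-07). SYT4, which also carries an exact site, had 1 read in all 8 libraries.

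Among genes of the fusion machinery, the responses were divided. The SNARE STX1A (syntaxin, chromosome 7, 73113536 to 73134002 of GRCh37) had 3.49 and 3.41 CPM under vehicle, 14.7 and 14.9 under EC359, 19.0 and 21.4 under vorinostat and 28.7 and 34.9 under the combination. It was higher in all treated groups than under vehicle: vorinostat raised it by 2.55 log2 units (SE 0.16, adjusted p = 1.9e-06) and EC359 alone by 2.10 (SE 0.16, adjusted p = 5.2e-05). With EC359 already present, vorinostat added 1.10 log2 units (SE 0.14, adjusted p = 0.00012), or 0.89 without combination replicate 2. Complexin CPLX1, which clamps SNARE complexes, had 1.60 and 1.40 CPM under vehicle, 2.27 and 1.01 under EC359, 18.2 and 16.3 under vorinostat and 6.75 and 11.2 under the combination. It rose by 3.51 log2 units (SE 0.36, adjusted p = 2.8e-05) and 2.42 (SE 0.35, adjusted p = 0.00026) in the 2 comparisons. The vesicle coat adaptor SNAP91 stayed near silence, with 3 and 1 reads under vehicle, 1 and 1 under EC359, 28 and 24 under vorinostat and 14 and 8 under the combination. Its change was 3.62 log2 units (SE 0.68, adjusted p = 0.0013) in vorinostat against vehicle, a call lost without vehicle replicate 2 (adjusted p = 0.024) or vorinostat replicate 1 (0.018), and 12.4-fold in reads from EC359 to the combination (95% counting interval 3.04 to 108, adjusted p = 0.0053). DESeq2 did not call the latter (adjusted p = 0.017), and it was lost without EC359 replicate 1 or 2, vorinostat replicate 1 or 2, vehicle replicate 1 or combination replicate 1, with adjusted p between 0.01 and 0.038. VAMP2, the vesicle SNARE, had 31.9 and 25.1 CPM under vehicle, 36.1 and 26.0 under EC359, 19.0 and 17.3 under vorinostat and 12.7 and 14.8 under the combination. It was lower in every vorinostat and combination library than in every vehicle library, with a log2 fold change of -0.65 (SE 0.19, adjusted p = 0.013), not called, and of -1.18 (SE 0.19, adjusted p = 0.0005) with EC359, which was -0.94 without EC359 replicate 1. SNAP25, the remaining SNARE, was not called in any comparison: it had 15.6 and 17.0 CPM under vehicle, 15.9 and 12.6 under EC359, 15.6 and 17.1 under vorinostat and 21.6 and 21.8 under the combination.

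Of the dense core granule genes, CHGB and VGF were called higher in both comparisons, SCG2 and SCG5 in neither. The granin CHGB, with an exact site 203 bases after its start, had 0.944 and 0.514 CPM under vehicle, 0.454 and 1.47 under EC359, 19.6 and 21.8 under vorinostat and 29.9 and 33.5 under the combination. It rose 28.2-fold and 34.1-fold (log2 fold change 4.82, SE 0.37, adjusted p = 5.9e-06, and log2 fold change 5.09, SE 0.36, adjusted p = 2.8e-06). Its paralog CHGA, which also has an exact site, had between 0 and 6 reads per library. The neurosecretory peptide precursor VGF (chromosome 7, 100805790 to 100808850 of GRCh37) had 55.0 and 61.8 CPM under vehicle, 57.2 and 74.3 under EC359, 178 and 170.5 under vorinostat and 615 and 622 under the combination. Vehicle and EC359 libraries overlapped, and the combination libraries stood far above the vorinostat libraries. Vorinostat raised VGF by 1.58 log2 units (SE 0.13, adjusted p = 7.4e-06) without EC359 and by 3.24 (SE 0.13, adjusted p = 1.9e-07) with it. SCG2, an abundant granin in these cells, had 353 and 312 CPM under vehicle, 585 and 445 under EC359, 328 and 323 under vorinostat and 307 and 313 under the combination, with a log2 fold change of -0.03 in vorinostat against vehicle (adjusted p = 0.84) and of -0.73 in the combination against EC359 (adjusted p = 0.00076), under the fold threshold.

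The enzymes UCHL1, a deubiquitinase, and ENO2, neuron-specific enolase, were expressed throughout. UCHL1 had 96.8 and 99.5 CPM under vehicle, 132 and 136 under EC359, 189 and 189.9 under vorinostat and 310.3 and 310.4 under the combination, so that no groups overlapped. Vorinostat lay above vehicle by 0.95 log2 units (SE 0.08, adjusted p = 9.4e-06), just under the fold threshold, and the combination above EC359 by 1.21 (SE 0.08, adjusted p = 2e-06), and the interaction was 0.26 (adjusted p = 0.21). ENO2 had 58.4 and 60.2 CPM under vehicle, 121 and 166 under EC359, 128 and 138 under vorinostat and 159.5 and 146 under the combination. Every treated library lay above vehicle: the change was 1.17 log2 units (SE 0.14, adjusted p = 9.9e-05) for vorinostat and 1.27 (SE 0.14, adjusted p = 0.00045) for EC359, while vorinostat on top of EC359 gave 0.09 (SE 0.14, adjusted p = 0.59). On the log2 scale the interaction of ENO2 was -1.08 (adjusted p = 0.016), not called.

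Of 8 growth cone and microtubule members, 5 were tested. In each comparison 4 of these were called higher, and MAP1B was called in neither. DPYSL3, a collapsin response mediator protein, went from silence to expression, with 0.0944 and 0.187 CPM under vehicle, 0.124 and 0.203 under EC359, 9.31 and 10.5 under vorinostat and 10.6 and 9.91 under the combination. Its rise was 67.6-fold and 62.0-fold (log2 fold change 6.08, SE 0.32, adjusted p = 7.7e-07, and log2 fold change 5.95, SE 0.31, adjusted p = 5.8e-07), from 2 and 4 reads under vehicle and 3 and 4 under EC359. DPYSL5, of the same family, had 16.8 and 16.4 CPM under vehicle, 8.66 and 10.5 under EC359, 34.7 and 32.6 under vorinostat and 21.4 and 22.6 under the combination. It rose by 1.02 log2 units (SE 0.13, adjusted p = 0.00014) and 1.20 (SE 0.14, adjusted p = 5.5e-05), the first of which was 0.99 without vehicle replicate 2 and 0.97 without vorinostat replicate 1, while EC359 libraries lay under vehicle at -0.80 (SE 0.14, adjusted p = 0.0048). The dendritic microtubule protein MAP2 had 20.2 and 19.9 CPM under vehicle, 17.8 and 13.8 under EC359, 141 and 148 under vorinostat and 100.5 and 104 under the combination, and rose 7.19-fold and 6.44-fold (adjusted p = 3.4e-07 and 3.5e-07). The axonal protein tau, MAPT, had 0.519 and 1.26 CPM under vehicle, 0.990 and 0.659 under EC359, 16.5 and 14.3 under vorinostat and 11.7 and 11.6 under the combination. It rose 17.1-fold and 13.8-fold (adjusted p = 5.5e-06 and 7.9e-06), with MAPT-AS1 overlapping its exons. MAP1B, abundant under vehicle, had 56.7 and 51.3 CPM under vehicle, 79.3 and 57.9 under EC359, 51.3 and 56.7 under vorinostat and 88.1 and 81.9 under the combination. Its vehicle and vorinostat libraries overlapped, with a log2 fold change of 0.00 (SE 0.15, adjusted p = 1).

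Among the remaining members, the adhesion molecule L1CAM had 0.142 and 0.0934 CPM under vehicle, 0.371 and 0.203 under EC359, 11.2 and 11.3 under vorinostat and 9.57 and 11.8 under the combination. It rose 91.3-fold and 35.5-fold (log2 fold change 6.51, SE 0.34, adjusted p = 7.2e-07, and log2 fold change 5.15, SE 0.29, adjusted p = 8.6e-07), from 3 and 2 reads under vehicle and 9 and 4 under EC359, and L1CAM-AS1 overlaps it. NCAM1, also an adhesion molecule, had 76.0 and 74.5 CPM under vehicle, 83.9 and 62.2 under EC359, 171 and 174 under vorinostat and 152 and 146 under the combination. It rose by 1.20 log2 units (SE 0.13, adjusted p = 4.8e-05) and, at the fold threshold, by 1.03 (SE 0.13, adjusted p = 0.00011), the latter 0.82 without EC359 replicate 2 and between 0.94 and 0.99 without either vorinostat or either combination library. The potassium channel KCNH2 (hERG) was the only one of 4 tested channel genes to be called, with 0.0944 and 0.140 CPM under vehicle, 0.124 and 0.203 under EC359, 12.3 and 10.1 under vorinostat and 8.39 and 9.14 under the combination. Its rise was 90.8-fold and 53.0-fold (adjusted p = 6.2e-07 and 7.4e-07), from 2 and 3 reads under vehicle and 3 and 4 under EC359. GRIN2D, an NMDA receptor subunit, was expressed at 32.9 to 44.3 CPM in all libraries and was not called, and the channel subunits CACNA1A and SCN3A stayed under 2 CPM and were not called, like the granule protein SCG5 at 1.38 CPM or less.

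CELF3 and RUNDC3A had few or no reads without vorinostat. CELF3, an RNA-binding splicing regulator with an exact site 308 bases before its start, had 0 and 0 reads under vehicle, 0 and 0 under EC359, 32 and 51 under vorinostat and 20 and 31 under the combination. Taking 3 reads over the group in place of 0, this was at least 27.4-fold higher under vorinostat than vehicle and at least 19.1-fold higher in the combination than EC359 (adjusted p = 0.00034 and 0.00057). RUNDC3A, a RUN domain protein of neurons, had 7 and 5 reads under vehicle, 2 and 0 under EC359, 272 and 350 under vorinostat and 337 and 334 under the combination. Its rise was 50.2-fold from vehicle to vorinostat (log2 fold change 5.65, SE 0.30, adjusted p = 7.3e-07), and 377-fold in reads from EC359 to the combination (95% counting interval 104 to 3120). For the latter edgeR gave 334-fold, the EC359 group holding 2 reads in all. The interaction of RUNDC3A was 2.73 (SE 0.77, adjusted p = 0.072), not called. Counting intervals cover counting error only. In these bulk samples, fewer expressing cells and less RNA per cell cannot be told apart.

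Of the 16 members with a REST-type site, 9 were called higher in both vorinostat comparisons, STMN3 was tested and was not, and 6 had too few reads to test, 4 of these with an exact site. Of the 32 members other than REST with no such site, 14 were called higher in both. Among the 9, CELF3, SYT5, RUNDC3A, STMN2 and SYN1 lay under the filter level in at least 1 vehicle library and were tested through the groups where they were high, so that passing the filter already set their direction. Over all tested protein-coding genes, 36.5% of the 63 with an exact site were called higher in both, 23.0% of the 626 with at most 1 mismatch and 14.1% of the 10833 with none. Without the members these shares were 29.8% of 57 and 21.9% of 616. The shares over protein-coding genes likewise count only genes that passed the filter, and all are given as a description, with no test.

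EC359 alone gave few calls among these genes. In EC359 against vehicle, 2 of 35 tested members were called higher (STX1A and ENO2) and 0 lower, where 1.94% and 1.72% of all tested genes were called. For the 0 lower, edgeR gave 4 members lower at an unadjusted p under 0.05, and DESeq2 called 0. Without the fold threshold, NGFR and UCHL1 were also higher and DPYSL5 lower. The median log2 fold change was 0.12 over the members and -0.02 over all tested genes.

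Added to vorinostat, EC359 raised 3 members, INA, STMN4 and VGF, and lowered 0, where 3.37% and 0.876% of all tested genes were called in the combination against vorinostat. For the 0 lower, edgeR gave 7 members lower at an unadjusted p under 0.05, and DESeq2 called 0. The median was 0.05, beside -0.01 over all tested genes. VGF was 3.55-fold higher in the combination than under vorinostat (log2 fold change 1.83, SE 0.13, adjusted p = 2.3e-05), a call kept on leaving out any 1 library. INA was 2.03-fold higher (log2 fold change 1.02, SE 0.15, adjusted p = 0.0016), at the fold threshold: DESeq2 gave 0.98, and leaving out either vorinostat or either combination library raised the adjusted p to between 0.013 and 0.029. STMN4 was 3.91-fold higher (log2 fold change 1.97, SE 0.40, adjusted p = 0.0094), and lost its call without either vehicle, either vorinostat or either combination library, with adjusted p between 0.011 and 0.089. Without the fold threshold, REST, STX1A and UCHL1 were also higher, and STMN3 (-0.51) and DPYSL5 (-0.61) lower. Both vorinostat and combination libraries enter this comparison and those of the vorinostat effect, so the values are set side by side only. In the combination against vehicle, 22 members were called higher and 2 lower (STMN3 and VAMP2, the latter lost without vehicle replicate 1 or combination replicate 1, with adjusted p of 0.011 and 0.012), where 19.5% and 15.3% of all tested genes were called.

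**Figure D5:**
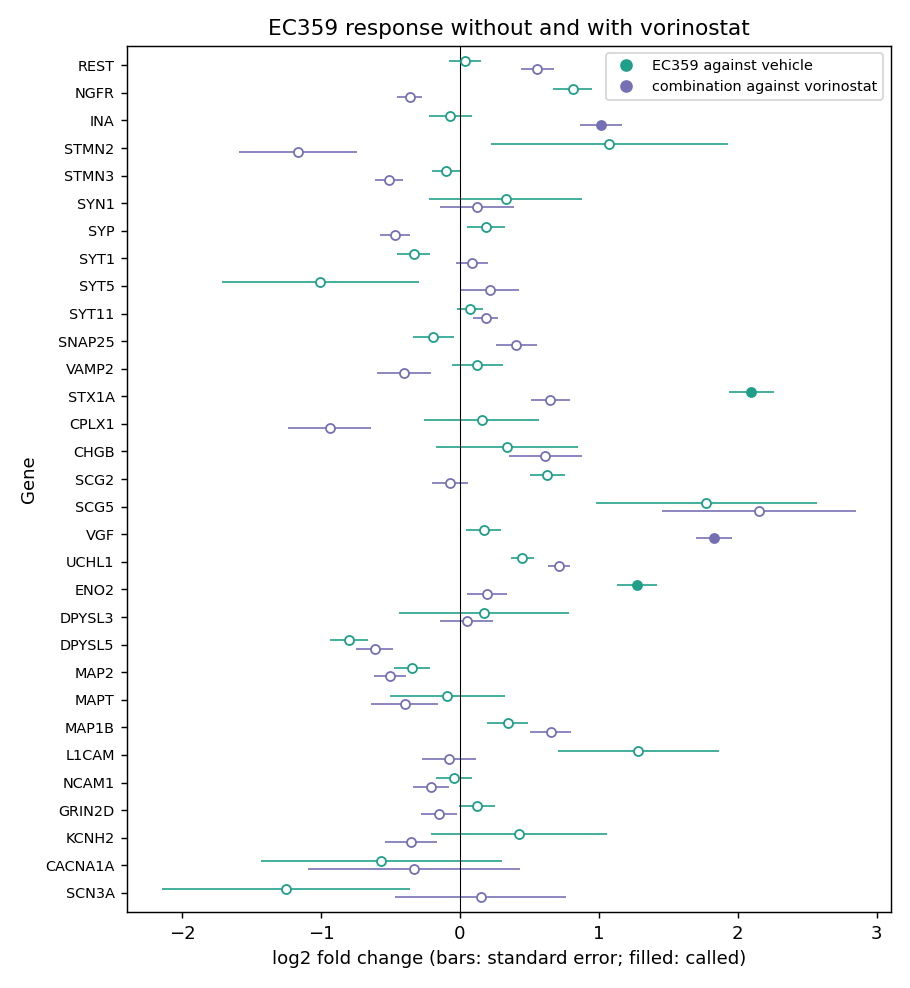
Log2 fold changes (x axis, bars of 1 SE) of tested members in EC359 against vehicle and in the combination against vorinostat. Filled points were called. STMN4, SNAP91, CELF3 and RUNDC3A, with 3 reads or fewer in a group, are left out. The filled points are STX1A and ENO2 for EC359 alone and INA and VGF for EC359 added to vorinostat.

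Whether EC359 changed the vorinostat response was tested gene by gene as the interaction, called at an adjusted p under 0.01. VGF lay above the sum of the separate responses and NGFR and STX1A below it, 1 and 2 of 35 members, where 1.62% and 0.482% of all tested genes were called. The median interaction was -0.16 over the members and 0.02 over all tested genes. For VGF the interaction was 1.66 (SE 0.18, adjusted p = 0.0012): its vorinostat response was 2.98-fold without EC359 and 9.42-fold with it. For NGFR it was -1.17 log2 units (SE 0.17, adjusted p = 0.0049), from 77.1-fold to 34.1-fold, with the EC359 baseline above vehicle and the combination level under that of vorinostat. For STX1A it was -1.45 log2 units (SE 0.21, adjusted p = 0.0055), from 5.86-fold to 2.15-fold, over an EC359 baseline 4.28-fold above vehicle, and its level under the combination was the highest of the groups. The mean CPM of STX1A went from 3.45 to 20.2 with vorinostat alone, and from 14.8 under EC359 to 31.8 under the combination. A difference on the CPM scale was not tested. NGFR and STX1A kept their sign but not their call without either vehicle, vorinostat or combination library (adjusted p 0.022 to 0.047 and 0.017 to 0.044), and VGF lost its call without vehicle replicate 2 or either vorinostat or combination library (0.012 to 0.02).

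The interaction was not called for the other members. For some genes with many reads the vorinostat responses on the log2 scale lay close together, as for SYT11 (2.07 and 2.18, interaction 0.11, SE 0.13, adjusted p = 0.69), MAP2 (2.85 and 2.69, interaction -0.16, SE 0.17, adjusted p = 0.66) and NCAM1 (1.20 and 1.03, interaction -0.17, SE 0.18, adjusted p = 0.66). For genes with few reads the SE of the interaction was wide, at -2.24 (SE 0.96, adjusted p = 0.21) for STMN2 and -1.36 (SE 0.61, adjusted p = 0.23) for L1CAM. INA missed the threshold at 1.09 log2 units (SE 0.22, adjusted p = 0.02) and SYP at -0.66 (SE 0.17, adjusted p = 0.057).

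Further neural regulators were examined as lists. Of 11 genes of neural RNA processing, 7 were tested, 1 was called higher and 1 lower in vorinostat against vehicle, and 2 were higher and 1 lower in the combination against EC359, beside shares over all tested genes of 16.8% higher and 13.3% lower without EC359 and 19.8% and 13.9% with it. The splicing factor NOVA2 had 0.802 and 0.887 CPM under vehicle, 0.907 and 0.355 under EC359, 12.3 and 11.7 under vorinostat and 9.31 and 11.8 under the combination. It rose 14.1-fold and 16.0-fold (adjusted p = 7.4e-06 and 6e-06). PTBP2, a splicing repressor of neuronal precursors, fell, with log2 fold changes of -1.47 (SE 0.21, adjusted p = 0.00026) and -1.56 (SE 0.21, adjusted p = 0.00015). Of 20 neural transcription factors, 9 were tested, with 3 called higher and 2 lower without EC359 and 4 higher with it, beside those same shares of all tested genes. DESeq2 called 1 higher and 2 lower without EC359 and 3 higher with it. The 2 lower were EBF1 (log2 fold change -1.30, adjusted p = 1.7e-06) and MYT1L (-2.75, adjusted p = 0.0028). With EC359, DESeq2 gave -0.95 for EBF1 (adjusted p = 0.00045) and 0.68 for MYT1L (adjusted p = 0.48), neither called. DLX2, a homeobox factor of forebrain interneurons, had 10.2 and 8.73 CPM under vehicle, 7.75 and 5.63 under EC359, 41.8 and 36.7 under vorinostat and 32.5 and 34.0 under the combination, rising by 2.05 and 2.30 on the log2 scale. POU3F2, a POU domain factor, rose by 1.07 and 1.57 on the log2 scale, and MYT1, a zinc finger factor, was called in both comparisons from at most 20 reads in a library. DESeq2 called neither POU3F2 nor MYT1 in vorinostat against vehicle (adjusted p = 0.028 and 0.026).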

How the data were processed

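Total RNA was sequenced from BT-549 cells in 4 groups of 2 libraries, grouped by their labels. Per the labels and the study's methods, the authors aligned 50-base single-end reads to hg19 with TopHat2 2.0.8b and counted them on RefSeq genes with HTSeq; the strand setting is not given in the sources used here. The deposited values are raw counts per gene symbol. No normalization preceded deposit, and summary lines were left out. Here, genes were filtered by filterByExpr by group (minimum count 10), scaled by TMM and fitted with 1 mean per group over 8 libraries in edgeR 4.0.16 (R 4.3.3). P-values of quasi-likelihood tests were adjusted (Benjamini-Hochberg) across 13694 genes. Calls took the thresholds of the study, an adjusted p below 0.01 with a log2 fold change above 1 in size, and for the interaction the adjusted p alone. The SE was derived from each log2 fold change and its F statistic. On simulated counts for 13694 genes, 90.5% of 200 genes changed by 2 on the log2 scale were recovered in vorinostat against vehicle and 83% in the interaction. The simulation gave every group the same spread, and its interaction of 2 was larger than any called for a member. The 83% may therefore overstate recovery in these data. Counting intervals are exact at 95%. Alternatives were DESeq2 1.42.0, RLE or total-count scaling, other filters, a replicate block and leaving out libraries; the crossed block, the libraries high in liver markers and the 5 kb site search were chosen after seeing the data. Members and lists were chosen with earlier results of these data known. Values in every library are given for REST and for members called anywhere; other members are given by counts, range and examples. Genes of other lists are named if called in the same direction in both vorinostat comparisons, at most 4 per list, or if they are HDAC1, HDAC2, RCOR1, SIN3A or KDM1A. ESR1 and PGR are named as receptors that define the cell line's class. EBF1 and MYT1L are named as neural transcription factors that DESeq2 called lower. KRT8, KRT18, EPCAM and FOXA1 are named to describe the combination libraries. Promoters come from RefSeq (GRCh38.p14) and gene starts from GENCODE on GRCh37. Some listed genes are not reported here.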

Additional observations from a re-analysis of the deposited data

Results flagged for a closer look

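For 3 genes the response to vorinostat differed with EC359 on the log2 scale by the test of the interaction itself (edgeR quasi-likelihood test, adjusted over all tested genes). VGF had an interaction of 1.66 on the log2 scale, above the sum of the separate responses, with all 4 groups of libraries apart except vehicle and EC359. NGFR had an interaction of -1.17 and STX1A of -1.45, below the sum. None of the 3 calls held on leaving out any 1 vorinostat or combination library, or the libraries high in liver markers. The interaction also uses the EC359 libraries, which differed most from each other, with a spread shared over all groups.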

How the results depend on the processing

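With 2 libraries per group and 19069450 to 24759041 gene reads per library, depth limits the members near silence most, and 14 members could not be tested. Main counts of 24 members called higher in each vorinostat comparison stayed within 1.5 times under each alternative run. Without the fold threshold, members called lower were 2 in vorinostat against vehicle, 1 in EC359 against vehicle and 2 in the combination against vorinostat (0 each with it), and members called higher were 4 in EC359 against vehicle (2 with it) and 6 in the combination against vorinostat (3 with it). Members lower in the combination against EC359, 2 in the main fit, were 1 with the stricter filter and 1 without the libraries high in liver markers, and 1 to 2 on leaving out 1 library; in the combination against vehicle they were 1 to 2. Fitting only the 2 groups compared left 1 member higher in EC359 against vehicle. In the combination against vorinostat, RLE scaling gave 1 member higher, total counts 1, leaving out the libraries high in liver markers 0, and leaving out 1 library 1 to 3. Interactions above the sum, 1 in the main fit, were 2 with no filter, 2 by DESeq2, 2 at an adjusted p under 0.05, 0 without the libraries high in liver markers, and 0 to 3 on leaving out 1 library; those below, 2 in the main fit, were 4 by DESeq2, 0 without the libraries high in liver markers and 0 to 6. These member counts moved with the number of calls over all tested genes, which was 222 above and 66 below the sum in the main fit, 0 and 0 without the libraries high in liver markers, 430 and 256 by DESeq2, 892 and 528 without EC359 replicate 1, 798 and 639 without EC359 replicate 2, and 45 to 59 above and 11 to 17 below without any other library. REST in EC359 against vehicle was -0.13 without EC359 replicate 1, 0.20 without EC359 replicate 2 and -0.11 without the libraries high in liver markers, where the main value was 0.04, and in the combination against EC359 it was 0.004 and -0.33 without EC359 replicate 1 and 2 in turn, where the main value was -0.16. The cause was not tested. Of single-gene values, 1227 kept their call and direction and 81 lost the call.

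The labels number libraries 1 and 2 in each group and do not say that a number marks a shared culture or day. Deviations of same-numbered libraries correlated from -0.24 to 0.37 across genes. A replicate block gave 24 members higher in vorinostat against vehicle, 25 in the combination against EC359, 2 in the combination against vorinostat, and interactions for 1 member above and 1 below the sum. The crossed replicate block, a choice made once the data had been seen, put 2 members above and 3 below.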
